A study of Mus musculus with 3 samples.

Results

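The genes described here lie near Rhbdf2 on distal mouse chromosome 11. They are a list of 39 neighbours, 21 on one side of Rhbdf2 and 18 on the other. The list does not hold every gene of the region, since 22 further annotated protein-coding genes lie between its outermost members. A gene was measured where a probe set annotated to it alone had a mean log2 expression value of at least 5 over the 3 arrays, and the probe set with the highest mean stood for the gene. This left 23 of the 39 neighbours, out of 8456 genes tested on the whole array. Probe sets are groups of short array probes whose signals are combined into 1 value, and some match more than 1 transcript.

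Dorsal skin was taken from 4-day-old female BALB/cA mice, the offspring of parents that carried the uncv mutation in 1 copy (uncv +/-). The 2 genotypes compared were wild type (uncv +/+, 1 array) and uncv null (uncv -/-, 2 arrays, named uncv null 1 and uncv null 2 here). The mice were sisters, told apart by their whiskers or by PCR. Values of 3 arrays are given below in the order wild type, uncv null 1, uncv null 2. The design text speaks of mice in describing the uncv null samples, and no other treatment is given for either group.

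Uncovered (uncv) is a spontaneous mouse mutation that leaves the skin with little hair. It was later placed in Rhbdf2, which encodes iRhom2, an inactive rhomboid protein that escorts the protease ADAM17 to the cell surface. When mice homozygous for such a mutation are compared with wild type sisters, the stretch of chromosome around the gene is inherited along with it. Within 1 inbred strain that stretch is usually the same on both copies. The comparison asks whether genes around the locus differed in expression between the genotypes.

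Rhbdf2 itself read (log2 values) 5.83 in wild type against 6.29 and 6.49 in the uncv null pair. Both uncv null values were higher. Its probe set was not placed relative to the mutation, so this does not check the genotype labels.

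In 6 of the 23 measured neighbours (26.1%) wild type lay farther from the nearer uncv null array than the uncv null arrays lay from each other, a share near the 29.7% of all tested genes. No measured neighbour passed the test (limma, Benjamini-Hochberg adjusted p = 0.9996 for the smallest, over all tested probe sets), and 0% of all tested genes did. A single neighbour, Llgl2, a polarity protein of epithelial cells, lay under an unadjusted threshold of 0.05 in that fit, on the higher side. Over the whole array 1.58% of genes did so on the higher side and 1.31% on the lower side. None of the 23 lay 2-fold or more from wild type in both uncv null arrays, against 0.225% of all genes higher and 0.296% lower. By the smaller step of 0.5 log2 units (1.41-fold) in both arrays, 1 neighbour was higher, against 2.52% of all genes, and 0 were lower, against 1.86%. With 1 wild type array the test has 1 residual degree of freedom per probe set and assumes that wild type skin varies like uncv null skin.

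The median difference of the 23 genes, uncv null minus wild type, was 0.05 log2 units, beside 0.04 over all tested genes. Their mean differences ran from -0.58 for Srsf2 to 0.67 for Llgl2, and 16 of the 23 (69.6%) lay within 0.25 log2 units of 0, beside 65.9% of all genes. Both uncv null arrays lay above wild type in 7 genes (30.4%, background 38.8%) and below it in 3 (13%, background 26.4%). In the other 13 the 2 uncv null arrays lay on opposite sides of wild type. Both lay on the same side in 43.5% of the 23, beside 65.2% of all genes. The uncv null arrays also differed from each other by a median of 0.32 log2 units in these genes, beside 0.22 over all genes. These shares cover only the neighbours bright enough to be measured.

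**Figure D1:**
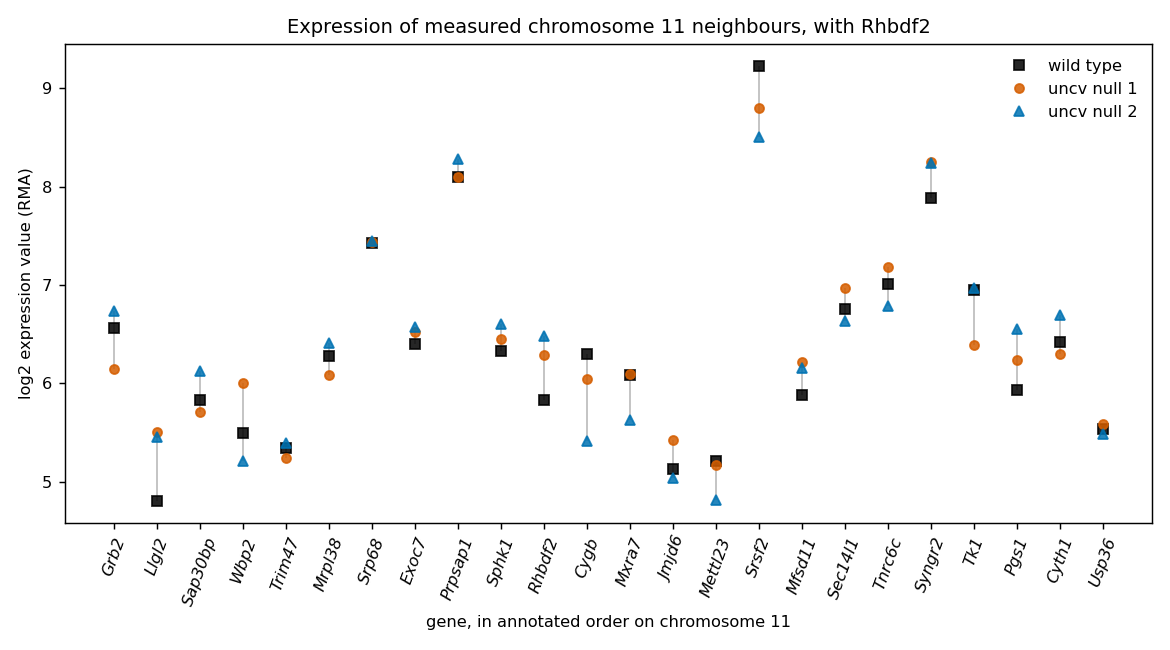
Log2 expression values (RMA) of the 23 measured neighbours and Rhbdf2 on the vertical axis, with genes in their annotated order on the horizontal axis. Squares are wild type, circles uncv null 1 and triangles uncv null 2, 1 array each, and grey lines span the 3 values. In 13 of the 23 neighbours the square lies between the other symbols. Heights of different genes cannot be compared, since each probe set has its own response.

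The rule that the gap from wild type to the nearer uncv null array exceed the difference between the uncv null arrays was then read by direction. On the higher side it was met by 5 genes, namely Llgl2, Mfsd11, Syngr2, Exoc7 and Srp68 (21.7% of 23, background 19.2%). On the lower side 1 met it, Srsf2 (4.35%, background 10.5%). The share on the higher side was near that of the whole array.

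Of the genes for cell polarity, membrane traffic and signalling, 7 of 8 were measured, with 3 higher in both uncv null arrays and 0 lower, beside 38.8% and 26.4% of all genes. Llgl2 read 4.81 in wild type against 5.51 and 5.45 in the uncv null pair. Both uncv null arrays were high and close together, and the groups did not overlap. The difference was 0.67 ± 0.26 (limma's standard error, 1 against 2 arrays; limma adjusted p = 0.9996). The wild type value lay below the level of 5, so Llgl2 was measured because of its uncv null values. Larger mean differences in either direction were found in 387 of the 8456 genes (4.58%).

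Syngr2, a membrane protein with 4 membrane spans related to those of synaptic vesicles, read 7.89, 8.25 and 8.24, in that order. Here too the uncv null arrays were almost equal and lay above wild type, by 0.35 ± 0.26 (1.28-fold, limma adjusted p = 0.9996). A second probe set of Syngr2 read 6.83, 7.06 and 6.96 in the same order and was also higher in both. That second one belongs to a class that may match other transcripts. Of the measured neighbours, Syngr2 had the smallest difference between its uncv null arrays, so the stretch before its start is shown. It is the part of the RefSeq promoter window outside annotated genes, at chr11:117809417-117809645 of GRCm38.p6 on the plus strand. The build comes from the C57BL/6J reference, not from BALB/cA.
Syngr2: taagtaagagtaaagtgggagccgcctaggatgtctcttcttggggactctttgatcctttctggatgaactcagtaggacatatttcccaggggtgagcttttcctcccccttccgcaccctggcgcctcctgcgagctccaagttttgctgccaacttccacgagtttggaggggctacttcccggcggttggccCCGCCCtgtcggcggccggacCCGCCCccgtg
Capitals mark matches, on either strand, to the GC box GGGCGG, the CCAAT box CCAAT and the TATA box TATAAA. The stretch held 2 GC boxes, which do not overlap, and neither of the other motifs. The same 229 positions held a GC box in 29.7% of the 32851 promoter windows of the table, a CCAAT box in 32.0% and a TATA box in 11.7%. Such a match describes letters and is not evidence of binding.

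Exoc7, a subunit of the exocyst that tethers secretory vesicles, read 6.40 in wild type against 6.53 and 6.57 in the uncv null pair. The step of 0.15 ± 0.26 was smaller than its error. Grb2, the adaptor that links the epidermal growth factor receptor and other receptor kinases to Ras, read 6.56, 6.15 and 6.73. Wild type lay between the uncv null arrays, and a second Grb2 probe set reversed their order, at 5.92, 5.97 and 5.56. Wbp2, a coactivator that binds WW domains, lay 0.50 above wild type in uncv null 1 and 0.79 lower than that in uncv null 2 and so had the widest spread between uncv null arrays among the probe sets that stand for the measured neighbours. Cyth1, an exchange factor for ARF GTPases, read 6.42, 6.30 and 6.70. None of these 3 genes had a common direction in the uncv null arrays, except that the mean of the 2 Grb2 probe sets was lower in both, with a mean difference of -0.14.

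Sec14l1, which encodes a protein with a SEC14 lipid-binding domain, gave different answers with its 2 probe sets. The brighter one, which stands for the gene, read 6.76 in wild type against 6.97 and 6.64 in the uncv null pair, and wild type lay between the others. The dimmer one read 5.39, 4.60 and 4.65. Both uncv null arrays were lower there, by 0.77 ± 0.21 log2 units on average (1.70-fold, limma without the filter, adjusted p = 0.9999), and within 0.05 of each other. With a mean of 4.88 that probe set fell just below the level for testing. Among all 76 probe sets annotated to 1 neighbour alone, it was the only one at least 0.5 log2 units lower in both uncv null arrays (background 1.32% of 34945 probe sets), and the Llgl2 probe set was the only one that much higher (background 1.09%). Which transcripts of Sec14l1 the 2 probe sets read is not given in the sources used here. RefSeq's promoter table lists 2 starts for this gene, with windows at chr11:117114918-117115217 and chr11:117135758-117136057 (GRCm38.p6, plus strand). The 250 bases before the first start, which lie outside annotated genes at chr11:117114918-117115167, are shown because the gene's probe sets disagree.
Sec14l1: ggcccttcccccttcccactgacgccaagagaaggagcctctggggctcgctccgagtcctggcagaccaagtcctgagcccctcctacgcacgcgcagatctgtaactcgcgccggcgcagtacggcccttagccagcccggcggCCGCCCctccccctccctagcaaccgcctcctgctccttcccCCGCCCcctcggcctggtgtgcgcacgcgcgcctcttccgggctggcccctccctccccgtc
Capitals mark the same motifs. This stretch held 2 GC boxes (32.7% of windows hold at least 1 in these 250 bases) and neither a CCAAT box nor a TATA box.

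**Figure D2:**
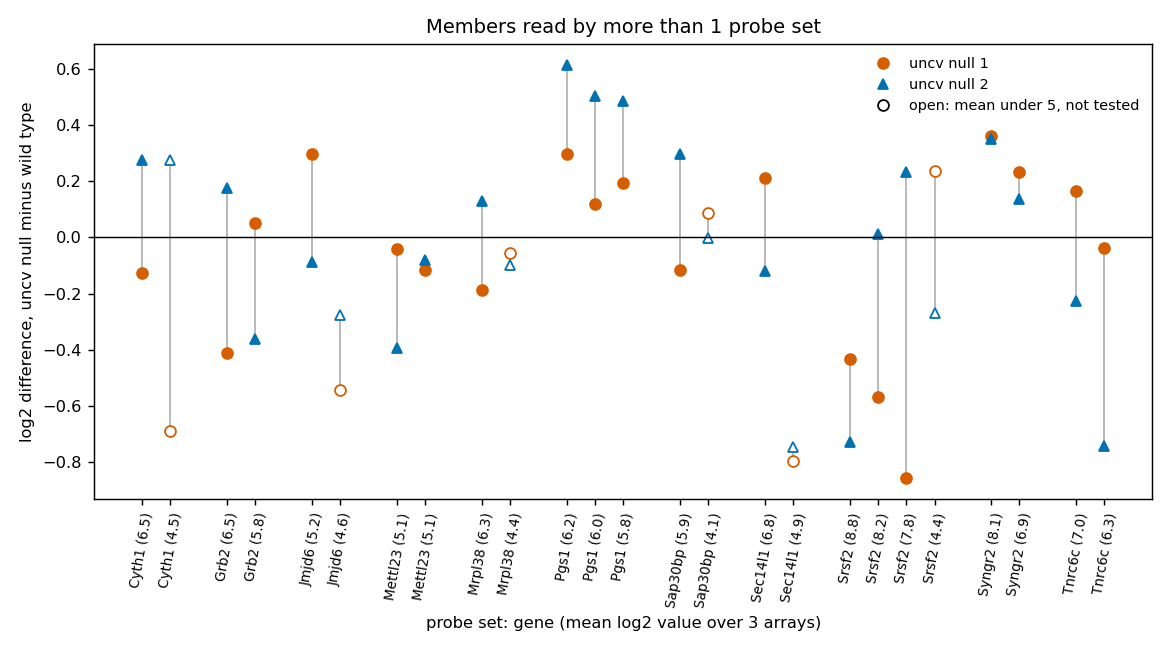
Log2 difference from wild type (vertical axis) for each probe set of the neighbours that are read by more than 1 probe set with a mean of 4 or more. Labels give the gene and the probe set's mean log2 value, circles are uncv null 1, triangles uncv null 2, and open symbols are probe sets under 5 that were not tested. The 3 filled Pgs1 probe sets lie above 0 in both arrays, while the Sec14l1 probe sets disagree and uncv null 1 and 2 change order among the Srsf2 probe sets.

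Among genes for RNA processing and translation, 4 of 6 were measured. Of these, 1 was above and 1 below wild type in both mutants, beside 38.8% and 26.4% of all genes. Srsf2, an SR protein that directs splice site choice, read 9.23 in wild type against 8.80 and 8.50 in the uncv null pair. Both uncv null arrays were lower, and the groups did not overlap. The difference was -0.58 ± 0.28 (limma adjusted p = 0.9996). Of the other tested probe sets of Srsf2, one read 8.36, 7.80 and 8.38 and another 8.05, 7.20 and 8.29. In both of these only uncv null 1 was low, and uncv null 2 lay slightly above wild type. Srsf2 no longer met the rule on the gap to wild type when its probe sets were averaged or the arrays were centred on their medians, though it was lower in both uncv null arrays under either setting. All 3 belong to a class of probe set that may match more than 1 transcript.

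The other 3 genes of this role had small differences or uncv null arrays on opposite sides of wild type. Srp68, a subunit of the signal recognition particle that takes nascent secretory proteins to the endoplasmic reticulum, read 7.42, 7.44 and 7.45, the closest 3 values of any measured neighbour and both slightly above wild type in the uncv null pair. Its mean difference of 0.02 was slightly below 0 when the arrays were centred on their medians (-0.0038) or quantile normalized (-0.02). Mrpl38, a protein of the mitochondrial ribosome, read 6.28, 6.09 and 6.41, with a probe set of the class that may match more than 1 transcript. Tnrc6c, a partner of Argonaute in microRNA silencing, read 7.02, 7.18 and 6.79 with its brightest probe set and 6.58, 6.54 and 5.84 with another. In both probe sets uncv null 2 was the lowest array, by 0.23 and 0.74 log2 units against wild type.

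Of the metabolic enzymes and the globin grouped with them, 5 of 8 were measured. Cygb, the haem protein cytoglobin known from fibroblasts, is the next gene after Rhbdf2. It read 6.30 in wild type against 6.04 and 5.41 in the uncv null pair. Both uncv null arrays were lower, but they differed from each other by 0.63, more than the mean difference of -0.57 ± 0.34 (1.49-fold, limma adjusted p = 0.9996). Fibroblast markers were lower as well. All 6 (Col1a1, Col1a2, Col3a1, Dcn, Lum and Pdgfra) lay lower in both uncv null arrays, with list means of 11.4, 11.3 and 10.9 (log2). Each read 8.8 or above on every array. Their part in the Cygb values was not tested. In whole skin, fewer cells of a type and less RNA per cell cannot be told apart.

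Pgs1, which makes the phosphatidylglycerol precursor of cardiolipin in mitochondria, read 5.94 in wild type against 6.23 and 6.55 in the uncv null pair. Both uncv null arrays were higher, by 0.45 ± 0.28 on average (1.37-fold, limma adjusted p = 0.9996). Its other 2 tested probe sets were higher in both arrays too, at 5.78, 5.90 and 6.29 and at 5.59, 5.78 and 6.07. Another, with a mean of 3.88, was not. The probe set that stands for Pgs1 and the one at 5.78, 5.90 and 6.29 belong to a class that may match other transcripts. Sphk1, which phosphorylates sphingosine, lies 3 genes before Rhbdf2 and read 6.33, 6.46 and 6.61. That is 0.20 ± 0.26 above wild type, within its error. Prpsap1, a regulatory partner of the enzyme that makes phosphoribosyl pyrophosphate, lies 4 genes before Rhbdf2 and read 8.10, 8.10 and 8.28.

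Tk1, the thymidine kinase of dividing cells, read 6.95 in wild type against 6.39 and 6.97 in the uncv null pair. Only uncv null 1 was low. Of 7 markers of proliferating cells with a probe set (Mki67, Top2a, Cdk1, Birc5, Rrm2, Pcna and Mcm2), 3 were above and 3 below wild type in both mutants, and their list means were 8.52, 8.47 and 8.55 (log2). The array uncv null 1, which was the low one in Tk1 and in 2 of the Srsf2 probe sets, also stood apart in control probe sets. Its 3 probe sets for ribosomal RNA averaged 7.93, beside 3.59 in wild type and 4.26 in uncv null 2, and its excess of the 3′ over the 5′ probe set of the Actb control was 1.23, beside 0.66 and 0.79. Their part in these values was not tested.

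Of the chromatin and transcription genes, 3 of 6 were measured. Jmjd6, a hydroxylase of splicing factors and histones, and Mettl23, a histone arginine methyltransferase, lie side by side and start in opposite directions within overlapping promoter windows, which share 165 bases. Jmjd6 read 5.13 in wild type against 5.43 and 5.04 in the uncv null pair. Mettl23 read 5.21, 5.17 and 4.81, and its second tested probe set 5.12, 5.01 and 5.04. Mettl23 was lower in both uncv null arrays with either probe set, by less than its error of 0.29. With quantile normalization it was no longer lower in both. The uncv null mean of its brightest probe set was 4.99, so that probe set reached the level of 5 only with the wild type value counted. In the second probe set all 3 values lay above 5. Jmjd6 showed no common direction in its tested probe set, while a dimmer one read 4.85, 4.31 and 4.58 and was lower in both uncv null arrays. The tested probe set of Jmjd6 and the second one of Mettl23 belong to a class that may match more than 1 transcript. The dimmer one of Jmjd6 does not. In both genes uncv null 1 lay above uncv null 2 with the brightest probe set. Mettl23, with a mean of 5.06, was the dimmest gene that was measured, and Unk, with 4.82, the brightest gene that was not.

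Recql5 and Sap30bp, a DNA helicase and a transcriptional regulator, also start head to head, in windows that share 266 bases. The part outside annotated genes, at chr11:115933515-115933577 (GRCm38.p6, plus strand), is shown as the stretch between the pair.
Recql5-Sap30bp: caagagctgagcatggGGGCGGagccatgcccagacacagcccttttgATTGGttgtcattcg
Capitals mark a GC box and, on the minus strand, a CCAAT box, with no TATA box. The same 63 positions held these 2 motifs in 11.6% and 10.6% of windows. Sap30bp read 5.83 in wild type against 5.71 and 6.12 in the uncv null pair, with wild type between the others. Recql5 was not measured, its brightest probe set having values of 4.24, 4.03 and 3.94. Afmid and Tk1 form another pair by their windows, but the 4 bases that these share lie after both starts. Afmid was not measured either. So a pair with both genes measured was found once, in Jmjd6 and Mettl23.

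The remaining measured neighbours were 2 genes of the ubiquitin system and 2 membrane proteins. Mfsd11, a member of the major facilitator family of transporters, lies next to Srsf2 and read 5.88 in wild type against 6.21 and 6.16 in the uncv null pair. It was higher in both uncv null arrays, by 0.31 ± 0.26 (1.24-fold, limma adjusted p = 0.9996), while Srsf2 beside it was lower. Mxra7, a membrane protein linked to matrix remodelling, read 6.09, 6.10 and 5.63, with uncv null 2 the low array. Trim47, a ubiquitin ligase of the tripartite motif family, read 5.34, 5.25 and 5.39. Usp36, a deubiquitinase of the nucleolus, read 5.54, 5.59 and 5.49 and had a mean difference of -0.00053, the nearest to 0 of these genes.

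The other 16 of the 39 neighbours had no probe set at the level for testing. Galk1, which phosphorylates galactose, had no probe set annotated to it alone. The other 15 had brightest probe sets with means from 2.59 to 4.82, on both sides of the array medians of 3.65 to 3.70, and none passed when the fit was run without the level (limma adjusted p = 0.9999 for the smallest). They were Aanat, Afmid, Dnah17, Foxj1, H3f3b, Prcd, Qrich2, Recql5, Rnf157, St6galnac1, St6galnac2, Tsen54, Ube2o, Unc13d and Unk. Several are known from other tissues, such as Aanat, an enzyme of melatonin synthesis in the pineal gland, and Foxj1 and Dnah17, genes of motile cilia and sperm. Of these 15, 3 lay above and 7 below wild type in both mutants, beside 33.9% and 29.2% of all genes without the level, with mean differences from -0.64 to 0.20. The value of -0.64 belonged to the only probe set of H3f3b alone, which read 4.72, 3.50 and 4.66. There uncv null 1 was far below wild type and uncv null 2 slightly below it. Another 5 probe sets named H3f3b together with other variant histone H3 genes and read between 10.5 and 11.7. They cannot be assigned to 1 gene.

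**Figure D3:**
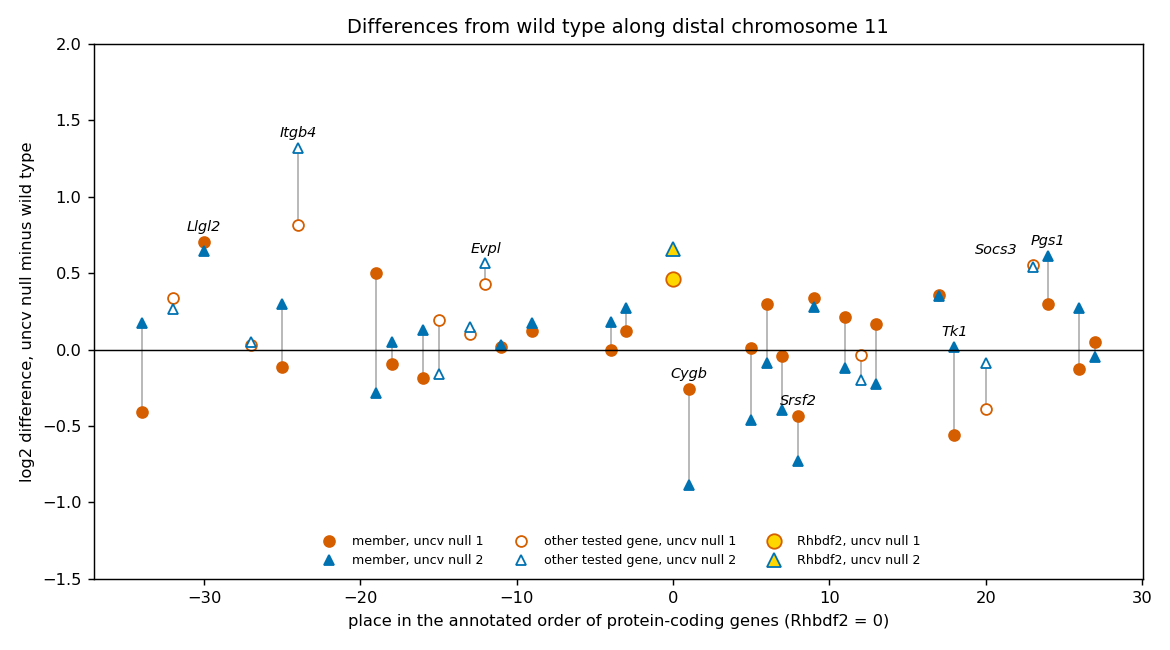
Log2 difference from wild type (vertical axis) against place in the annotated order of protein-coding genes, with Rhbdf2 at 0 (horizontal axis). Circles are uncv null 1 and triangles uncv null 2, filled for the neighbours, open for other tested genes in the same span and gold for Rhbdf2. Large and small differences lie side by side, and the widest, in Itgb4, lies 24 genes from Rhbdf2.

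Place along the chromosome was then set beside the differences, by gene order alone. The 11 measured neighbours within 11 genes of Rhbdf2 had a median difference of 0.05, and the 12 farther ones of 0.04. Their median sizes without sign were 0.20 and 0.10, beside 0.17 over all genes. Of the nearer 11, 4 were above and 3 below wild type in both mutants, and of the farther 12, 3 and 0, beside 38.8% and 26.4% of all genes. By side, the 10 measured neighbours before Rhbdf2 had 4 higher and 0 lower, and the 13 after it 3 higher and 3 lower. None of these splits was tested, and the shares that were higher, 40% before Rhbdf2 and 23.1% after it, stand beside the same 38.8%.

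The span between the outermost neighbours, Grb2 and Usp36, holds 22 further annotated protein-coding genes, of which 9 were measured. Of these 9, 6 were above and 2 below wild type in both mutants (background 38.8% and 26.4%), and their median difference was 0.13. Caskin2, 1 of the 6, read 4.87 in wild type and was measured because of its uncv null values. The 3 with the widest differences were Itgb4, a hemidesmosome integrin of basal keratinocytes, Socs3, an inhibitor of STAT signalling, and Evpl, the cornified envelope protein envoplakin. Itgb4 read 5.40 in wild type against 6.22 and 6.72 in the uncv null pair, a difference of 1.07 ± 0.31 (2.09-fold, limma adjusted p = 0.9996). Socs3 read 5.74, 6.30 and 6.28, and Evpl 7.63, 8.06 and 8.20. When the tested probe sets of each gene were averaged, the Socs3 difference was 0.38 in place of 0.55. Those of Itgb4 and Evpl were identical, which is what a gene with 1 tested probe set must give, so averaging is no check of them. None of the 3 is on the list of neighbours. Llgl2, Itgb4 and Evpl are known from epithelia. Of 6 epidermal markers (Krt5, Krt14, Krt1, Krt10, Lor and Flg), 1 was above and 1 below wild type in both mutants, with list means of 11.9, 11.8 and 12.0 (log2). The part of epidermal cell number in these 3 genes was not tested.

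The rest of chromosome 11 served as a wider background. Its 706 other measured genes had a median difference of 0.05, with 39.2% above and 24.8% below wild type in both mutants, and 3.54% at least 0.5 log2 units away in both. On the other chromosomes, 7702 genes gave 0.04, 38.7%, 26.6% and 4.44%. The measured neighbours had 1 gene of 23 (4.35%) that far away, beside 4.38% of all tested genes. The 9 other measured genes of the span had 2 (22.2%), both higher. The rule on the gap to wild type was met by 66.7% of those 9, beside 26.1% of the neighbours and 29.7% of all tested genes. The difference between the 2 lists was not tested.

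**Figure D4:**
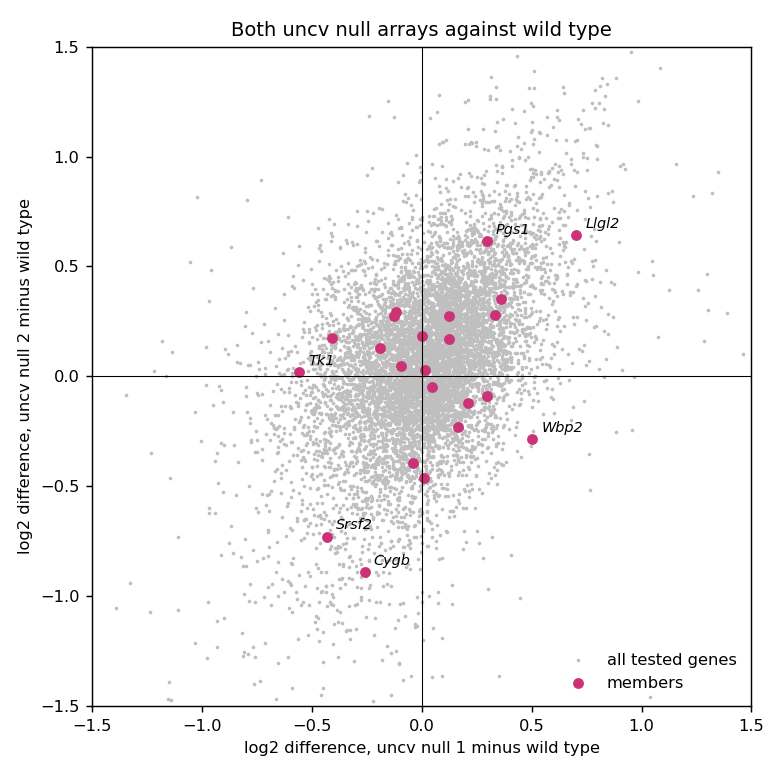
Log2 difference from wild type in uncv null 2 (vertical axis) against that in uncv null 1 (horizontal axis) for all 8456 tested genes (grey) and the 23 measured neighbours (magenta). Both axes share the wild type array, which tilts the grey cloud, and 99 genes lie outside the limits of 1.5. The neighbours lie within the grey cloud, with Llgl2 at the upper right and Srsf2 and Cygb at the lower left.

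As facts of the whole series, the table's values ran from 1.96 to 13.1 on the log2 scale. Pearson's r over tested probe sets, as a description, of wild type with uncv null 1 was 0.972 and with uncv null 2 was 0.958, and that of the 2 mutants was 0.961. Dorsal skin was represented by its own markers, with all 6 epidermal, all 6 hair follicle and all 6 fibroblast markers at 6.72 or above on every array. Other tissues differed between the arrays. All 8 skeletal muscle markers were lower in both uncv null arrays (list means 10.3, 9.27 and 8.56) and all 4 tested of 5 adipocyte markers were higher (means over the 5 markers 7.36, 7.84 and 8.59). Their part in the values of the neighbours was not tested. The 4 ciliated cell markers were at 3.42 or below, under the level of testing.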

How the data were processed

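The deposited values are log2 expression values made with RMA, per the submitters' processing notes, from 1 biotin-labelled array per sample. RMA corrects background, normalizes between arrays and summarises probes, so a shift of all transcripts together would not be seen. Its version is not given in the sources used here. Control probe sets (64 of 45101) were set apart. Of the rest, 34945 had 1 gene symbol in the platform annotation, 932 several and 9160 none. Probe sets with a mean of at least 5 over 3 arrays (13559, for 8456 genes) were fitted with limma 3.58.1 in R 4.3.3 (lmFit, eBayes, Benjamini-Hochberg over all of them, threshold 0.05, 4.75 prior degrees of freedom), which was tested on simulated data. A difference is the mean of the uncv null arrays less wild type, in log2 units. With 3 arrays, their number limits the precision, and p-values measure only the spread between these arrays.

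Gene order came from RefSeq's GRCm38.p6 gene table. Its gene coordinates are not printed, since the sources name no build for the array. Promoter windows (250 bases before to 50 after a start) matched 29 of the 39 neighbours. The genes and lists were chosen with earlier results of these data known. By rule, all measured neighbours and Rhbdf2 are named, with the 3 other genes of the span that differed most. Sec14l1's dimmer probe set was singled out after its values were seen. The filter, the normalization, the probe set rule and the variance model were each varied, and each uncv null array was left out in turn.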

Additional observations from a re-analysis of the deposited data

How the results depend on the processing

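With no filter (38 neighbours), 10 were lower in both uncv null arrays, beside 29.2% of all genes. The rule on the gap to wild type was met by 12, with 6 higher and 6 lower, beside 16.2% and 12.3%. The median difference was -0.012. With a mean of 7 or more (4 neighbours), 2 were higher and 1 lower, beside 39.8% and 26.5% of all genes at that level. At 0.5 log2 units there were 0, beside 2.10% higher and 1.46% lower. The gap rule was met by 3, with 2 higher and 1 lower, beside 21.2% and 10.3%. These counts change with how many neighbours enter. With arrays centred on the median, 5 were lower, beside 28.7% of all genes, the median was 0.0185 and Srp68 was at -0.00376. With quantile normalization the median was 0.003005 and Srp68 at -0.0172. The cause was not tested. The mean of probe sets kept each count of neighbours within 1.5 times, but not always the same genes. The intensity trend changes only limma's variance model, so counts made from the values could not change under it. With the mean of probe sets, Grb2 in place of Srsf2 met the gap rule on the lower side, and Grb2 joined those lower in both. With median centring 0 neighbours met that rule on the lower side, Tk1 and Trim47 joined those lower in both and Prpsap1 took the place of Srp68 among those higher. With quantile normalization Tk1 took the place of Mettl23, and Prpsap1 that of Srp68. limma called 0 genes in each of the 6 alternatives it was run under. With 1 uncv null array left out it was not run, since no residual degree of freedom remains. The remaining array then had 13 to 14 neighbours higher, 9 to 10 lower and 3 to 4 at 0.5 log2 units or more. The medians were 0.017 to 0.049 for the neighbours and 0.025 to 0.066 for all genes. Shares of all genes are not given for the counts on 1 array. In 17 of the 23 neighbours leaving out 1 array changed the difference by a factor above 1.5 or reversed its sign. The exceptions were Llgl2, Srp68, Exoc7, Srsf2, Mfsd11 and Syngr2. The 17 include the 13 whose uncv null arrays lay on opposite sides of wild type, where leaving out 1 of them always reverses the sign. The share of all genes was not counted. Leaving out wild type would leave no comparison. No paired analysis was possible because the labels number only the uncv null samples. Signal over background was not used here, so dim probe sets are read as values only.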
